A study of Capra hircus with 6 samples.

Results

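The 180 long noncoding RNAs (lncRNAs) described here each carry an open reading frame (ORF) of more than 100 codons and are called long-ORF lncRNAs below. They were chosen from the 2943 lncRNA transcripts of the study by sequence, length and locus, without use of their expression. The longest run from an ATG to the next in-frame stop codon, in the 3 forward frames and without counting the stop, had to exceed 100 codons. The transcript had to be shorter than 4000 nt and had to be the only transcript of its locus. An ORF above 100 codons was present in 313 of the 2943 transcripts, of which 98 shared their locus with another transcript and 35 were single transcripts of 4000 nt or more. The remaining 1959 single-transcript lncRNAs under 4000 nt served as the comparison set. Expression was measured by RNA-seq in the hypothalamus, the brain region that starts puberty through the release of gonadotropin-releasing hormone, of female Anhuai goats. The pubertal group held 3 goats of 4.5 to 5 months, recognised by signs of oestrus, and the prepubertal group held 3 goats of 2.5 to 3 months, with 1 library per goat. The study reports that the pubertal goats were heavier on average and were killed in the late follicular phase. Age, body weight, cycle phase and pubertal stage cannot be told apart in these groups.

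An lncRNA is a transcript longer than a short regulatory RNA that is not thought to encode a protein. ORFs nevertheless occur in any sequence by chance, because the stop codons TAA, TAG and TGA are only some of the possible codons, and they become longer as a transcript becomes longer or poorer in A and T. Some transcripts annotated as lncRNAs have been found to encode short peptides, so the length of the ORF is one of the features used to separate coding from noncoding RNA. The authors had removed transcripts with coding potential by CNCI, which scores the use of adjoining triplets, by CPC, which scores the ORF and its similarity to known proteins, and by Pfam Scan, which looks for protein domains. The long-ORF lncRNAs are those that passed these filters with a long ORF. Whether any of them is translated was not measured.

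The starts of the 5 longest ORFs are given to show the sequence around the initiating ATG, written 5′ to 3′ with the ATG, the base at -3 and the base at +4 in capitals, where the A of ATG is +1. A purine at -3 and a G at +4 are the bases that most favour initiation in mammals.
XLOC_843525: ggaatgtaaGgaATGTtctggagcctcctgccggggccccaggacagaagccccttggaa
XLOC_1814515: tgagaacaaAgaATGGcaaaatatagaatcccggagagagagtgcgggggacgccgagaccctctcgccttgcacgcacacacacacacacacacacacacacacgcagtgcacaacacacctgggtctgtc
XLOC_630397: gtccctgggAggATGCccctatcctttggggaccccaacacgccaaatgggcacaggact
XLOC_085998: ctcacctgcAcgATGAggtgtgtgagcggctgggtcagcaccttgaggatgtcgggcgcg
XLOC_2026379: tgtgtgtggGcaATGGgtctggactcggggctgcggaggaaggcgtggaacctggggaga
The ORF of XLOC_843525 (TCONS_01670484, 1871 nt) was the longest with 218 codons and ran from base 1102 to a TGA at base 1756. XLOC_1814515 (TCONS_03700509, 1734 nt) followed with 215 codons, and the stretch printed for it shows a repeat of CA with 14 copies in a row inside the ORF. It was the only long-ORF lncRNA with 8 or more copies of a dinucleotide in its ORF. XLOC_630397 (TCONS_01217708) held 211 codons, XLOC_085998 (TCONS_00156665) 208 codons and XLOC_2026379 (TCONS_04166733) 205 codons. Of these 5 starts, XLOC_1814515 and XLOC_2026379 had both a purine at -3 and a G at +4.

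The next starts belong to the 5 long-ORF lncRNAs with the highest mean expression, and the window of XLOC_989763 continues into its ORF because that ORF takes up most of the transcript.
XLOC_1764923: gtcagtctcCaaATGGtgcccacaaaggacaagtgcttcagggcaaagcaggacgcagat
XLOC_989763: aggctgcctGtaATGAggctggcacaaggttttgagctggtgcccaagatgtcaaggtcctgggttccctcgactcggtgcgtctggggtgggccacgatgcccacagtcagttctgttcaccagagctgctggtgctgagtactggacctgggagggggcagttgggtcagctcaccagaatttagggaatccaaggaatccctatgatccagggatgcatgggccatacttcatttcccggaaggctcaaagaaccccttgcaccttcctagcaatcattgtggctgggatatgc
XLOC_533211: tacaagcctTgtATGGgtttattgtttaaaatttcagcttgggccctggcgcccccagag
XLOC_2407269: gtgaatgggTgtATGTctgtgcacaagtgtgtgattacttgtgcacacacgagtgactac
XLOC_1587387: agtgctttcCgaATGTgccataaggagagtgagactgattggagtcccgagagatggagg
XLOC_989763 (TCONS_01976358) was 815 nt long and its ORF of 203 codons, from base 186 to a TAA at base 795, made up 75.1% of it. XLOC_2407269 (TCONS_04943240, 1663 nt) held 202 codons, XLOC_1587387 (TCONS_03339665, 3198 nt) 158 codons, XLOC_533211 (TCONS_01041886, 836 nt) 132 codons and XLOC_1764923 (TCONS_03682654, 1700 nt) 113 codons. In XLOC_989763 the bases at -3 and +4 were G and A, and in the other 4 the base at -3 was a pyrimidine.

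Across the 180 long-ORF lncRNAs the ORF had a median of 119 codons and ranged from 101 to 218, the values that chose them. It exceeded 150 codons in 36 and 200 codons in 8. The ORF took up a median of 27.5% of the transcript (7.92% to 89.1%), and in 32 it took up at least 50%. A median of 352.5 nt lay before the ATG and 470 nt after the stop, so most of the typical long-ORF lncRNA lay outside its ORF. The stop was TGA in 94 (52.2%), TAG in 47 (26.1%) and TAA in 39 (21.7%), against 49.7%, 20.1% and 30.3% in the 1907 comparison lncRNAs that held any ORF.

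The bases around the start had similar shares in the long ORFs and the shorter ones. A purine at -3 was found in 104 (57.8%) of the long ORFs against 55.1% of the longest ORFs of the comparison lncRNAs. A G at +4 was found in 58 (32.2%) against 30.7%, and both together in 29 (16.1%) against 302 (15.8%). These shares are counts over sequences and were not tested.

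Length of the ORF relative to the transcript was largest in 3 lncRNAs, whose starts are printed to show how close the ATG lies to the 5′ end.
XLOC_573616: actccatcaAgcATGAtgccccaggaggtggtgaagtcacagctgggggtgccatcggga
XLOC_091384: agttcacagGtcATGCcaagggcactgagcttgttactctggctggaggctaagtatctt
XLOC_1769755: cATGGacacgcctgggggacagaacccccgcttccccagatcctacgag
In XLOC_573616 (TCONS_01089892, 411 nt) the ORF of 121 codons made up 89.1% of the transcript. In XLOC_091384 (TCONS_00167854, 736 nt) 204 codons made up 83.6%, and in XLOC_1769755 (TCONS_03790741, 621 nt) 164 codons made up 79.7%. The ATG of XLOC_1769755 began at base 2, so that no base at -3 could be read. XLOC_573616 was listed at 0.535 FPKM (fragments scaled by transcript length and by the mapped fragments of the library) in prepubertal goat 2 and at 0 in the other 5 libraries, the fewest libraries of any long-ORF lncRNA. XLOC_1769755 was listed at 0.616, 1.01 and 0 FPKM in the pubertal and at 0.414, 0.234 and 0.452 FPKM in the prepubertal goats, so the stages overlapped.

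The long-ORF lncRNAs were longer and richer in G and C than the comparison lncRNAs. Their median length was 1366.5 nt against 478 nt and their median GC content 52.8% against 47.7%. Within the long-ORF lncRNAs the ORF was richer in GC than the sequence around it, with a median of 56.8% inside and 51.7% outside, and the ORF was above the outside in 133 of 180 (73.9%). In the comparison lncRNAs the longest ORF was above the outside in 58.4%. The rule asks for a long stretch without stop codons and so favours stretches poor in A and T. This contrast is therefore not independent of the rule, and it was not examined on the reverse complement. The 3 codon positions of the long ORFs had nearly the same GC content, with medians of 56.7%, 56.0% and 57.8%. Low-complexity sequence took up more than 20% of the ORF in 2 long-ORF lncRNAs (1.11%) against 32 comparison lncRNAs (1.68%).

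The reverse complement of each transcript, which is not the RNA that was assembled, offers a sequence of the same length and GC content. It is not a neutral reference. The coding filters were applied to the assembled transcripts and may have removed long forward ORFs. The study also counts antisense lncRNAs, whose reverse complement may hold sequence of a coding gene. Neither point was examined here. Among the 2139 single-transcript lncRNAs under 4000 nt, an ORF above 100 codons was found in 180 (8.42%) on the forward strand and in 191 (8.93%) on the reverse complement. Of the 180 long-ORF lncRNAs, 58 (32.2%) also held such an ORF on the reverse complement, against 133 (6.79%) of the comparison lncRNAs, which were shorter. Within length classes these shares were 11.8% against 2.28% under 1000 nt and 30.9% against 18.3% from 1000 to under 2000 nt. From 2000 to under 4000 nt they were 50.8% against 27.0%. In transcripts under 1000 nt, 51 forward and 40 reverse ORFs passed 100 codons (1539 transcripts). In those of 1000 to under 2000 nt the counts were 68 and 80 (391 transcripts) and in those of 2000 to under 4000 nt they were 61 and 71 (209 transcripts). The forward strand exceeded the reverse complement only in the shortest of these 3 classes, and these counts were not tested.

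**Figure D1:**
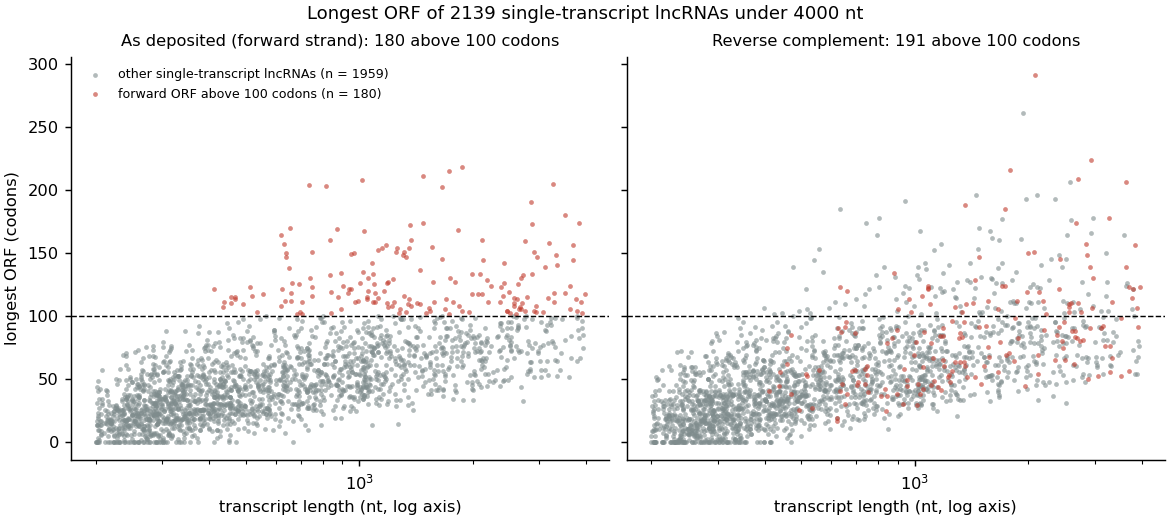
Longest ORF in codons against transcript length in nt (log axis) for the 2139 single-transcript lncRNAs under 4000 nt, on the forward strand (left) and on the reverse complement (right), with the long-ORF lncRNAs in red and the dashed line at 100 codons. The ORF lengthens with the transcript on both strands, and 180 lncRNAs lie above the line on the left and 191 on the right.

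GC content went with the long ORFs in each length class on both strands. Among transcripts of 2000 to under 4000 nt, a forward ORF above 100 codons was held by 13.4% of those under 45% GC, by 33.8% of those of 45 to 54% and by 65.6% of those of 55% or more. On the reverse complement the same 3 shares were 17.5%, 40.0% and 68.8%. Among transcripts of 1000 to under 2000 nt the forward shares were 6.63%, 17.0% and 45.5%, and under 1000 nt they were 0.891%, 3.87% and 5.28%. A long forward ORF was thus most common in the longest and most GC-rich lncRNAs.

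**Figure D2:**
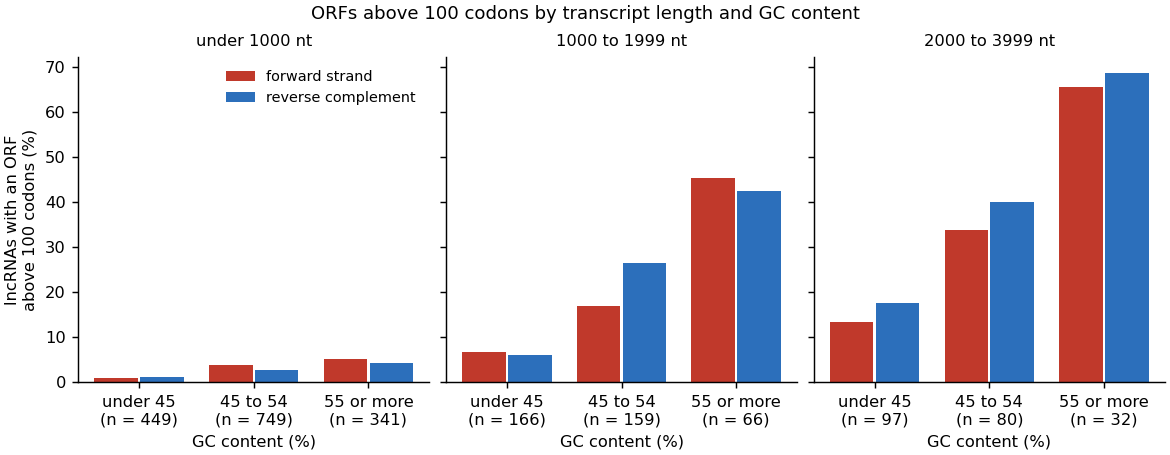
Share of single-transcript lncRNAs with an ORF above 100 codons (y axis, %) by GC class (x axis) in 3 length classes, forward strand in red and reverse complement in blue, with the number of transcripts in each class. The share rises with GC content on both strands, from 13.4% to 65.6% on the forward strand in transcripts of 2000 to under 4000 nt.

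Undetermined bases were present in 7 long-ORF lncRNAs. They lay within the ORF in 1 of them, XLOC_1112214 (TCONS_02246904, 190 codons), where 25 bases of the ORF were undetermined and were not counted as stops.

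Over all lncRNAs, between 73.4% and 77.9% of the 2943 transcripts were above 0 FPKM in a library, and the Spearman correlation between any pair of libraries, across lncRNAs, which are not independent replicates, lay between 0.368 and 0.432. The depth behind single values is unknown, because FPKM values hold no counts. Of 10 hypothalamic genes, 7 had values in the mRNA table and 6 were above 1 FPKM in each library, with PMCH, the precursor of melanin-concentrating hormone, at 673 to 2173 FPKM and GNRH1, the precursor of gonadotropin-releasing hormone, at 5.34 to 16.0 FPKM. AVP, the vasopressin gene, was listed at 0 in the 6 libraries, and OXT, HCRT and TRH were not analysed here. Pubertal goat 3 stood apart in TTR, a gene of the choroid plexus, with 309 FPKM against 1.14 to 53.4 in the other 5 libraries, and in POMC, with 429 FPKM against 22.9 to 85.1. AGRP varied widely too, from 5.69 FPKM in pubertal goat 2 to 176 FPKM in prepubertal goat 2. The limma test and the differences in level and detection over all lengths were also computed without pubertal goat 3.

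Long-ORF lncRNAs were listed above 0 in more libraries than the comparison lncRNAs. They were above 0 FPKM in all 6 libraries in 149 of 180 (82.8%), against 842 of 1959 (43.0%). In single libraries between 166 and 173 of the 180 were above 0, and the share averaged 94.7% against 69.8%. The difference was 25.0 ± 1.14 percentage points (SD over 6 libraries) and was above 0 in 6 of 6. Without pubertal goat 3 it was 24.8 points. The other 31 long-ORF lncRNAs were above 0 in 5 libraries (18), 4 (5), 3 (4), 2 (3) or 1 (1), and 28 of them were shorter than 1000 nt. Listed at 0 in all 3 pubertal goats were 2 long-ORF lncRNAs and in all 3 prepubertal goats 0, against 221 (11.3%) and 164 (8.37%) comparison lncRNAs. The gap in single libraries lay in the short transcripts. Under 1000 nt it was 21.7 ± 3.92 points, from 1000 to under 2000 nt it was 0.967 ± 1.32 points and from 2000 to under 4000 nt it was 0.563 ± 0.276 points. All 61 long-ORF lncRNAs of 2000 to under 4000 nt were above 0 in all 6 libraries, as were 98.6% of the comparison lncRNAs of that length.

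Length still differed within the shortest class, where the median was 694 nt for long-ORF lncRNAs and 385 nt for the comparison. From 600 to under 1000 nt, a range chosen after seeing the data, the median lengths were 748 and 765 nt for 39 and 325 transcripts. There the share above 0 was lower in the long-ORF lncRNAs, by -5.57 ± 6.03 points (SD, n = 6 libraries), a difference smaller than its spread between libraries. The libraries list the same transcripts, so this spread does not measure the uncertainty over lncRNAs. In this range of like lengths the long-ORF lncRNAs were not listed above 0 more often than the others.

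In each library the median level of the long-ORF lncRNAs was higher than that of the comparison lncRNAs. It was 0.589, 0.691 and 0.762 FPKM in the pubertal and 0.731, 0.715 and 0.727 FPKM in the prepubertal goats. The comparison lncRNAs had medians of 0.450, 0.420 and 0.477 FPKM and of 0.442, 0.532 and 0.494 FPKM. Neither range overlapped the other, and both lay below the medians of the mRNA transcripts, which were 2.17 to 2.45 FPKM. On the log2(FPKM + 1) scale the difference between the medians was 0.21 ± 0.05 (SD, n = 6 libraries), and it was above 0 in 6 of 6. Without pubertal goat 3 it was 0.20.

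The difference in level shrank with length and turned in the longest transcripts. It was 0.18 ± 0.06 under 1000 nt, 0.07 ± 0.03 from 1000 to under 2000 nt and -0.05 ± 0.05 from 2000 to under 4000 nt, where 1 of 6 libraries was above 0. From 600 to under 1000 nt it was -0.000568 ± 0.0889. The measure mattered too. When each lncRNA was given its mean over the 6 libraries, the median of the long-ORF lncRNAs was 0.640 FPKM against 0.572 FPKM, but under 1000 nt it was lower, 0.434 against 0.534 FPKM. In classes set by both length and GC content, made after seeing the data, the long-ORF lncRNAs had the higher median in 3 and the lower in 6 of 9. The widest gap was from 2000 to under 4000 nt at 55% GC or more, with 0.860 FPKM for 21 long-ORF lncRNAs and 2.96 FPKM for 11 others. No p-value was computed for these differences, because the lncRNAs were chosen with earlier results of the data known.

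**Figure D3:**
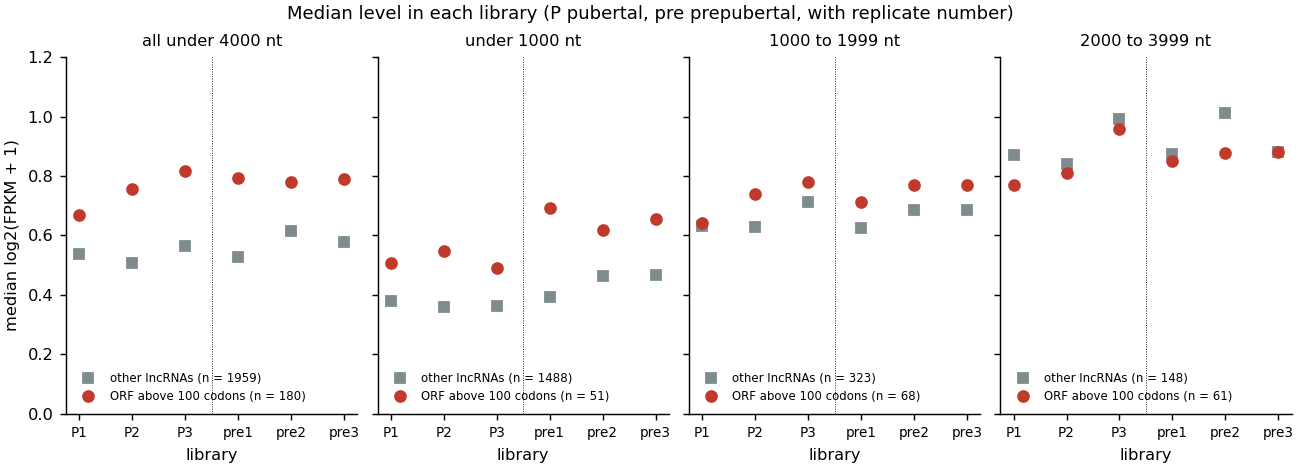
Median log2(FPKM + 1) in each of the 6 libraries (x axis) for long-ORF lncRNAs (red circles) and comparison lncRNAs (grey squares), for all transcripts under 4000 nt and in 3 length classes. The red circles lie above the grey squares in each library for all transcripts and under 1000 nt, come closer from 1000 to under 2000 nt, and from 2000 to under 4000 nt lie at or below them.

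Long-ORF lncRNAs with a mean of at least 1 FPKM were found in each length class. That level, which is below the mRNA medians of 2.17 to 2.45 FPKM, was reached by 54 (30.0%) against 544 (27.8%) comparison lncRNAs. The shares were 25.5% against 27.7% under 1000 nt, 29.4% against 21.1% from 1000 to under 2000 nt and 34.4% against 43.2% from 2000 to under 4000 nt, so their order differed between the classes. At least 10 FPKM was reached by 5 of 180 against 35 of 1959. The means of the long-ORF lncRNAs ran from 0.0892 to 25.3 FPKM. The highest belonged to XLOC_1764923, at 21.8, 21.1 and 30.4 FPKM in the pubertal and 19.1, 28.6 and 31.0 FPKM in the prepubertal goats, above 86.8% of the mRNA transcripts. Its stages overlapped. The study places it within 10 kb of COPG2, which encodes a subunit of the coatomer of transport vesicles and averaged 41.7 ± 3.34 FPKM in the pubertal group against 41.1 ± 4.07 FPKM (SD, n = 3).

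XLOC_989763, the lncRNA whose ORF of 203 codons fills most of its sequence, was at 17.8, 20.7 and 20.2 FPKM in the pubertal and at 24.8, 25.0 and 22.2 FPKM in the prepubertal goats. The 3 pubertal values lay below the 3 prepubertal values, with means of 19.5 ± 1.57 and 24.0 ± 1.55 FPKM. The difference of -0.28 on the log2(FPKM + 1) scale (SE 0.18) did not pass the limma test (adjusted p = 0.943). Its neighbours within 10 kb were SLC38A10, a transporter gene of the amino acid carrier family, at 16.5 ± 0.822 and 14.5 ± 0.407 FPKM, and TEPSIN, which encodes a protein of adaptor complex 4 vesicles, at 5.27 ± 1.19 and 5.16 ± 0.474 FPKM. SLC38A10 lay higher in the pubertal goats, without overlap, where XLOC_989763 lay lower, and the relation between them was not tested. Among the neighbours of other named lncRNAs, USP35, near XLOC_1587387, was also higher without overlap (7.14 ± 0.258 and 6.58 ± 0.346 FPKM). So was LOC102184120, near XLOC_1769755 (1.51 ± 0.0936 and 1.12 ± 0.239 FPKM). The share of all genes without overlap was not computed.

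XLOC_533211, near PHACTR3, was at 23.0, 19.1 and 14.9 FPKM in the pubertal and 22.1, 14.2 and 30.0 FPKM in the prepubertal goats. XLOC_2407269 was at 12.6, 11.5 and 10.2 FPKM against 12.5, 11.1 and 11.2 FPKM. XLOC_1587387, near GAB2, an adaptor of growth factor signalling, and USP35, a deubiquitinase, was at 11.2, 10.6 and 10.7 FPKM against 10.2, 8.76 and 11.5 FPKM. In each of these 3 the stages overlapped. Of the 5 highest lncRNAs, XLOC_989763 and XLOC_2407269 were also among the 8 with more than 200 codons.

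The 5 longest ORFs lay in lncRNAs of low to moderate level. XLOC_843525, with 218 codons, was at 0.247, 0.508 and 0.708 FPKM in the pubertal and 0.414, 0.753 and 0.391 FPKM in the prepubertal goats. XLOC_1814515 was at 0.300, 0.700 and 0.580 against 0.764, 0.411 and 0.741 FPKM. XLOC_085998 was at 0.176, 0.671 and 0.298 against 0.806, 0.512 and 0.826 FPKM. These 3 overlapped between the stages. XLOC_2026379, near SH3BP2, was at 0.411, 0.951 and 1.24 against 0.819, 1.31 and 0.812 FPKM and overlapped as well. XLOC_630397 was at 1.42, 1.47 and 0.858 against 1.52, 2.48 and 1.47 FPKM, where the highest pubertal value was just under the lowest prepubertal value (log2 difference -0.32, SE 0.24, limma adjusted p = 0.943). The difference was -0.16 without prepubertal goat 2 and -0.19 without pubertal goat 3. XLOC_085998 lay within 10 kb of TUBB4B, a beta-tubulin gene at 232 ± 36.9 and 251 ± 8.91 FPKM, of SLC34A3 at 0.541 ± 0.155 and 0.595 ± 0.222 FPKM, and of FAM166A at 0.230 ± 0.142 and 0.265 ± 0.122 FPKM. Its own level was near that of the last pair and far below that of TUBB4B.

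No long-ORF lncRNA passed the test between the stages. Of the 180, 179 reached the minimum mean of 0.1 FPKM and were tested, and XLOC_573616, with a mean of 0.0892 FPKM, was not. In limma on log2(FPKM + 1) over 2925 lncRNA transcripts, 0 long-ORF lncRNAs had an adjusted p under 0.05, where 0.0342% of all tested transcripts did, and the lowest adjusted p was 0.943. At an unadjusted p under 0.05 there were 2 (1.12%), against 3.52% of all tested transcripts. Of these, 1 was higher and 1 lower in the pubertal goats, against 1.54% and 1.98% of all tested. The count was 0 without pubertal goat 3, 4 without pubertal goat 2 and 1 without prepubertal goat 1. A p-value here measures only the spread between these goats, and an exact permutation test of 3 goats against 3 cannot go below 0.1. In bulk tissue, fewer cells of a type and less RNA per cell cannot be told apart.

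The stages did not overlap in 13 long-ORF lncRNAs (7.26%), close to the 6.67% of all tested transcripts. There were 3 higher in the pubertal goats, where the share over all tested was 2.87%, and 10 lower, where it was 3.79%. The median log2 difference of the 179 was -0.02, that of all tested transcripts -0.03 and that of the comparison lncRNAs -0.04, with 83 long-ORF lncRNAs above 0 and 96 below. Differences ran from -0.70 to 0.59 and reached 0.5 in size in 5 of 179, against 519 of all 2925 tested. The lowest belonged to XLOC_709810, at 0, 0 and 0.295 FPKM in the pubertal and 1.91, 0 and 0.893 FPKM in the prepubertal goats, where the stages overlapped. It is named here after its values were seen. The stage difference of long-ORF lncRNAs was thus centred near 0 like that of the other lncRNAs.

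Over all lengths, long-ORF lncRNAs varied less between goats and between stages than the comparison lncRNAs. From 1000 nt upward the spread between goats was nearly the same in both. The median size of the stage difference was 0.096 against 0.233 on the log2 scale, and the median residual SD between goats of a stage was 0.219 against 0.372. From 2000 to under 4000 nt the residual SDs were 0.169 and 0.168, and from 1000 to under 2000 nt they were 0.209 and 0.212. Under 1000 nt, where the long-ORF lncRNAs were longer than the others, they were 0.287 and 0.452. The size of the stage difference was smaller in each class, with 0.179 against 0.295 under 1000 nt, 0.0859 against 0.132 from 1000 to under 2000 nt and 0.0721 against 0.0933 from 2000 to under 4000 nt.

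**Figure D4:**
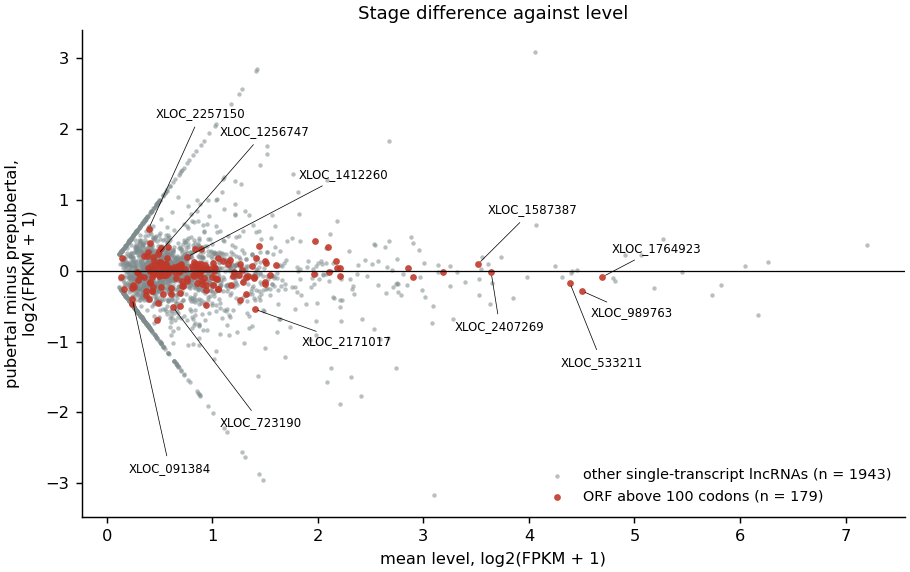
Pubertal minus prepubertal difference (y axis) against the mean level (x axis), both on the log2(FPKM + 1) scale, for 179 long-ORF lncRNAs (red) and 1943 comparison lncRNAs (grey). The red points lie between -0.70 and 0.59, and the diagonal edges are lncRNAs listed at 0 in all goats of a stage.

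The lncRNAs named for the stages are the 3 in each direction with the lowest p-values among those without overlap. They are shown here, except XLOC_091384, which is printed above, by the start of the ORF and, for the pair with an unadjusted p under 0.05, by the end of it, with the stop codon in capitals.
XLOC_2257150 start: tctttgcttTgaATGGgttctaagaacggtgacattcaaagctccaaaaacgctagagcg
XLOC_2257150 stop: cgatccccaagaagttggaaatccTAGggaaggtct
XLOC_1256747 start: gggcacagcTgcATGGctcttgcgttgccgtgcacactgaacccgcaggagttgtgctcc
XLOC_1412260 start: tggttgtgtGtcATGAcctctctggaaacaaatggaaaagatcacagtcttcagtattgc
XLOC_723190 start: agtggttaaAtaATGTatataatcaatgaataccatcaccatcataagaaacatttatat
XLOC_723190 stop: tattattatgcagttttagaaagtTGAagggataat
XLOC_2171017 start: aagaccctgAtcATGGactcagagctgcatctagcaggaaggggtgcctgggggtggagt
XLOC_2257150 (TCONS_04779838, 638 nt, 147 codons) was at 0.235, 0.971 and 0.727 FPKM in the pubertal and at 0, 0.112 and 0.108 FPKM in the prepubertal goats. Each pubertal value was above each prepubertal value, with means of 0.644 ± 0.375 and 0.0734 ± 0.0636 FPKM (SD, n = 3). The log2 difference was 0.59 (SE 0.23, limma unadjusted p = 0.0377, adjusted p = 0.943). Without pubertal goat 2 the difference was 0.45, and with a pseudocount of 0.1 in place of 1 it was 2.02. XLOC_2257150 lay within 10 kb of NR2E1, a nuclear receptor gene of neural stem cells, which was at 5.90 ± 1.51 and 5.50 ± 1.48 FPKM.

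XLOC_723190 (TCONS_01438127, 457 nt, 115 codons) had the opposite direction. It was at 0.227, 0.389 and 0.267 FPKM in the pubertal and at 0.737, 0.626 and 1.21 FPKM in the prepubertal goats, with means of 0.294 ± 0.0846 and 0.856 ± 0.308 FPKM. The log2 difference was -0.51 (SE 0.19, limma unadjusted p = 0.0353, adjusted p = 0.943), -0.38 without prepubertal goat 3 and -1.25 with a pseudocount of 0.1. With a GC content of 36.3% and an ORF over 76.1% of its length, it was among the 28 long-ORF lncRNAs under 45% GC. Its neighbour ZNF214, a zinc finger gene, was at 9.17 ± 0.401 and 9.56 ± 0.462 FPKM.

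XLOC_2171017 (TCONS_04537228, 168 codons) was at 0.846, 1.62 and 1.16 FPKM in the pubertal and at 2.87, 2.07 and 1.71 FPKM in the prepubertal goats, a log2 difference of -0.54 (SE 0.24, limma adjusted p = 0.943). XLOC_091384, with the ORF over 83.6% of its length, was at 0.0933, 0 and 0 FPKM against 0.211, 0.626 and 0.260 FPKM, a log2 difference of -0.39 that was -0.26 without prepubertal goat 2. Both were lower in each pubertal goat than in each prepubertal goat, and neither passed the test. The remaining lncRNAs that were lower in pubertal goats without overlap and are described nowhere else, XLOC_243274, XLOC_100615, XLOC_1773537 and XLOC_230062, had log2 differences between -0.33 and -0.22 and were not past the test either. XLOC_091384 lay near KRT5, a keratin gene of stratified epithelium, which was at 0.164 ± 0.0609 and 0.120 ± 0.0304 FPKM.

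Of the lncRNAs higher in pubertal goats, XLOC_1256747 (TCONS_02630074, 147 codons, near CTDSPL) was at 0.425, 0.384 and 0.762 FPKM against 0.171, 0.369 and 0.342 FPKM, and its nearest values of the opposite stages differed by little. XLOC_1412260 (TCONS_02951980, 142 codons) was at 0.797, 0.819 and 0.819 FPKM in the pubertal and at 0.403, 0.681 and 0.680 FPKM in the prepubertal goats. Its pubertal values were close together, with an SD of 0.0127 FPKM, and lay above the prepubertal values. Their log2 differences of 0.23 and 0.19 did not pass the test. That of XLOC_1256747 fell to 0.12 without pubertal goat 3, and that of XLOC_1412260 to 0.11 without prepubertal goat 1. XLOC_1412260 lay near RAB26, which encodes a vesicle GTPase, and TRAF7, a signalling adaptor, and both genes overlapped between the stages.

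**Figure D5:**
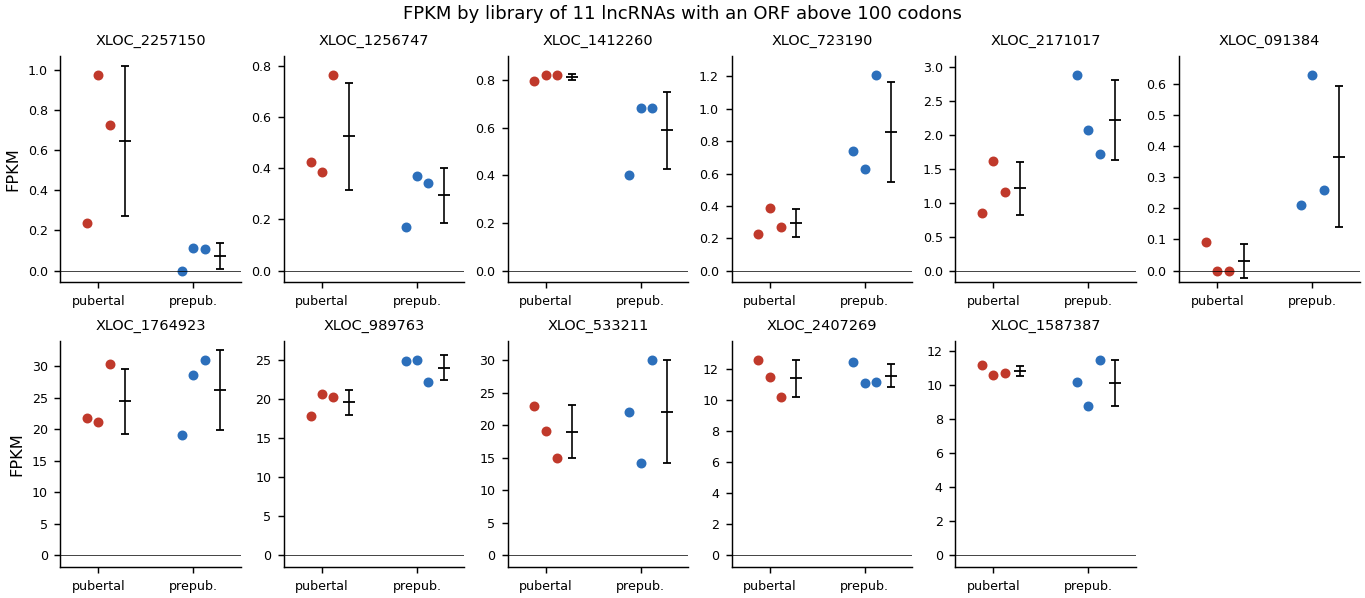
FPKM in each goat (points, pubertal red and prepubertal blue, linear axes) with mean ± SD (black, n = 3) for the 3 long-ORF lncRNAs per direction with the lowest p-values among those without overlap (top) and the 5 with the highest mean (bottom). In the top row the stages do not overlap, from 0 to 0.112 against 0.235 to 0.971 FPKM in XLOC_2257150, and in the bottom row only XLOC_989763 is without overlap.

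XLOC_1430952 (TCONS_02961807, 151 codons) and XLOC_912734 (TCONS_01819028, 124 codons) are the long-ORF lncRNAs that the study names in its text or tables. The study lists XLOC_1430952 for EMC3 and XLOC_912734 for ZNF444, as potential targets in trans, which it predicted by co-expression and associates with puberty. The neighbours given below are not those targets. XLOC_1430952 was at 2.88, 3.62 and 4.96 FPKM in the pubertal and at 3.03, 3.18 and 3.72 FPKM in the prepubertal goats, and XLOC_912734 was at 0.908, 0.943 and 1.25 against 1.16, 0.905 and 1.03 FPKM. The stages of both overlapped. XLOC_1430952 had among its neighbours within 10 kb RGS11, a regulator of G protein signalling, at 7.16 ± 0.844 and 7.48 ± 1.79 FPKM. The others were FAM234A at 5.87 ± 1.37 and 4.80 ± 0.546 FPKM, ARHGDIG at 49.2 ± 4.83 and 47.9 ± 6.66 FPKM, and PDIA2 at 1.43 ± 0.114 and 1.47 ± 0.277 FPKM. All of these neighbours overlapped between the stages. XLOC_912734 lay near BCAR1, which encodes a docking protein of focal adhesions, at 1.94 ± 0.354 and 1.72 ± 0.306 FPKM.

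At the limit of 100 codons, exactly 101 codons were found in 4 long-ORF lncRNAs with means of 0.245 to 3.40 FPKM, and exactly 100 codons in 8 single-transcript lncRNAs under 4000 nt with means of 0.264 to 20.3 FPKM. The highest on each side are shown by the start of the ORF.
XLOC_841844: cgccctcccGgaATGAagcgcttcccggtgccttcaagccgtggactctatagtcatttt
XLOC_1430567: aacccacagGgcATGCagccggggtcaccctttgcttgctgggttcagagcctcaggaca
XLOC_841844 (TCONS_01696210, 101 codons), near MSI1, an RNA-binding protein gene of neural progenitors, was at 2.47, 3.57 and 3.93 FPKM in the pubertal and at 2.28, 5.04 and 3.11 FPKM in the prepubertal goats. XLOC_1430567 (TCONS_02961508), just outside with 100 codons, was at 18.9, 24.9 and 16.7 against 18.5, 21.4 and 21.3 FPKM. Both overlapped between the stages.

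Some ORFs ran through sequence that recurs in other lncRNAs. A match of at least 80% identity over at least 100 bases to an lncRNA of another locus was found by blastn in 50 of the 180 long-ORF lncRNAs (27.8%), against 356 (18.2%) of the comparison lncRNAs. Within length classes the order was the other way, with 5.88% against 9.88% under 1000 nt, 25.0% against 39.3% from 1000 to under 2000 nt and 49.2% against 55.4% from 2000 to under 4000 nt. The match lay in the ORF, by at least 100 bases, in 15 long-ORF lncRNAs (8.33%) against 88 (4.49%). The longest ORFs of the comparison lncRNAs had a median of 43 codons and went down to 1. Some were thus too short to hold such a match, and each in-ORF contrast given here depends in part on the rule that chose the long ORFs. The in-ORF shares within length classes were 1.96% against 2.28%, 13.2% against 9.29% and 8.20% against 16.2%, so their order depended on the class. At 90% identity the match lay in the ORF in 1 long-ORF lncRNA (0.556%) and in 25 comparison lncRNAs (1.28%). The extreme case, chosen after its values were seen, was XLOC_1002175 (TCONS_02134148, 1372 nt, 108 codons), whose ORF matched 222 other lncRNA transcripts. The stretch from base 368 to 559 of the transcript, which lies in its ORF, and the matching stretch of XLOC_1496457 (TCONS_03145206), another long-ORF lncRNA in which it lies outside the ORF, are printed to show the shared sequence.
XLOC_1002175: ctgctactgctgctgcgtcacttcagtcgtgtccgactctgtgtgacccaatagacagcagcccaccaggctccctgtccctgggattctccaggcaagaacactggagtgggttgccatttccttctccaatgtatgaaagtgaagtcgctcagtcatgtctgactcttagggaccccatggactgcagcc
XLOC_1496457: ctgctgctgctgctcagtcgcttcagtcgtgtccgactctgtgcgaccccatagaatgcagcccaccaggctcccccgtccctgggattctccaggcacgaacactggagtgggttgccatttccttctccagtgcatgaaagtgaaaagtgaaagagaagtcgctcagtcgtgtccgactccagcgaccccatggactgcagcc
XLOC_1002175 was at 0.199, 0.115 and 0.357 FPKM in the pubertal and at 0.413, 0.427 and 0.640 FPKM in the prepubertal goats. The stages did not overlap (log2 difference -0.29, limma adjusted p = 0.943), and how reads from so widely shared a sequence were assigned was not tested.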

How the data were processed

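RNA of the hypothalamus of 3 pubertal and 3 prepubertal goats was measured with 1 rRNA-depleted strand-specific library per goat. The authors used TopHat for alignment and both Scripture and Cufflinks 2.1.1 for assembly, and deposited FPKM values per transcript and library, without read counts. Cuffdiff 2.1.1 is named in the submitters' processing notes. The genome build is not given in the sources used here, so no coordinates are printed. The authors also deposited lncRNA sequences and a comparison of the stages, whose fold changes, p-values and q-values were not used. From that comparison only the locus and the transcript length, another value in nt, were taken. In all tables, 0 columns of single libraries were left unused.

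ORFs were read from the deposited sequences in Python 3.11.15 with numpy 2.4.6 and pandas 2.3.3. Similarity was searched with blastn 2.17.0 at an e-value of at most 1e-05. The stages were compared with limma 3.58.1 in R 4.3.3 (two-sided, eBayes with trend). Values were log2(FPKM + 1), a scale that understates changes of low transcripts. Transcripts needed a mean of 0.1 FPKM or more, and Benjamini-Hochberg adjustment ran over the 2925 that had it, with a threshold of 0.05. The scripts were tested on simulated data. Plots used matplotlib 3.10.9. Members and lists were chosen with earlier results of these data known. The lncRNAs named were the 5 with most codons, the 5 with the highest mean FPKM, up to 3 per direction with the lowest p among those without overlap, the 3 with the largest ORF share, the highest on each side of the limit, and those the study names. XLOC_709810, XLOC_1002175, XLOC_1496457, XLOC_1112214 and 4 more without overlap are named outside it, after their values had been seen. Neighbours came from the study's list within 10 kb, with symbols from the deposited table and from RefSeq genes (ARS1.2 assembly). Comparison of the ORFs with goat proteins, planned, was not made here.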

Additional observations from a re-analysis of the deposited data

How the results depend on the processing

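No long-ORF lncRNA had an adjusted p under 0.05 in the test of the stages under any of the 13 alternatives, where limma was used throughout. The count at an unadjusted p under 0.05 was 2, and it was 0 with a minimum mean FPKM of 1, where 54 were tested. It ran from 0 (without pubertal goat 3) to 4 (without pubertal goat 2) when goats were left out. With the replicate number as a block it was 1, but goats with the same number did not deviate together (correlations of -0.023, 0.0118 and 0.0375), so the numbers pair nothing. The median log2 difference, -0.02, became 0.033 with quantile normalization and 0.020 with centring, and ran from -0.056 to 0.00145 as goats were left out, so its sign depended on the setting. The 13 lncRNAs without overlap, of 179 tested, became 16 with centring and 3 with a minimum mean FPKM of 1, where only 54 were left. The share over all lncRNAs at that minimum was not computed. A pseudocount of 0.1 enlarged the stage differences of low lncRNAs, to 2.02 in XLOC_2257150, -1.25 in XLOC_723190, -0.84 in XLOC_2171017, -1.80 in XLOC_091384, 0.65 in XLOC_1256747, 0.43 in XLOC_1412260 and -0.51 in XLOC_630397, with 3 at an unadjusted p under 0.05. Of 21 named transcripts carried through the fits, among them XLOC_1430567 from just outside the limit, 10 kept their sign and 11 changed it in some setting. Where the stages do not overlap, leaving out a goat or changing the pseudocount cannot change the sign, so a kept sign is no support there. Among the named transcripts whose stages overlapped, only XLOC_085998 and XLOC_1587387 kept it.

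The difference in level, 0.21, was 0.074 from 1000 to under 2000 nt, -0.053 from 2000 to under 4000 nt, -0.000568 from 600 to under 1000 nt and 0.49 with a pseudocount of 0.1. From the mean of the 6 libraries it was 0.062 over all lengths, -0.097 under 1000 nt, 0.032 from 1000 to under 2000 nt and -0.038 above that. The difference in detection, 25.0 points, was 23.7 with others of any length, 21.7 under 1000 nt, 0.967 and 0.563 in the longer classes, and -5.57 from 600 to under 1000 nt. The means of the libraries, the undetermined bases, the range from 600 nt and the stricter identity were alternatives chosen after seeing the data. Leaving out each goat kept the level between 0.20 and 0.23 and detection between 24.7 and 25.4 points. Over both strands 313 single-transcript lncRNAs under 4000 nt held an ORF above 100 codons, against 180 on the forward strand. Without the ORF that holds undetermined bases there were 179. At 90% identity 1 ORF matched another locus, against 15. The planned comparison with proteins was not run. With no read counts, depth could not be weighed for the low lncRNAs.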
